A study of Homo sapiens with 267 samples.

Results

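The genes described here are 5 protein-coding genes of chromosome band 9p21, namely CDKN2A, CDKN2B, MTAP, DMRTA1 and KLHL9. They were taken by symbol from the 63677 genes of the count table, and all 5 were found in it by their Ensembl identifiers. The band is known to be lost from both copies of chromosome 9 in K562, a line established from a chronic myeloid leukaemia and driven by BCR-ABL. The counts measure RNA only, so the number of DNA copies was not measured here. Across 263 libraries and 325252695 reads on genes, the 5 genes together received 7 reads.

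CDKN2A encodes p16, which binds CDK4 and CDK6 and holds back the entry into S phase, and in another reading frame ARF, which restrains MDM2. CDKN2B, its neighbour, encodes p15, an inhibitor of the same kinases. MTAP encodes methylthioadenosine phosphorylase, which recycles a by-product of polyamine synthesis to adenine and methionine. KLHL9 is a Kelch protein that brings substrates to the ubiquitin ligase cullin 3, and DMRTA1 belongs to the DM domain transcription factors. Loss of this band is common in leukaemias and in many solid tumours, and MTAP is often lost together with CDKN2A because the genes lie side by side.

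Cells were captured on the Fluidigm C1, a microfluidic system that turns the RNA of single cells into cDNA. The libraries were set into 3 runs by the prefix of their titles. By the study's account, fresh cells of each experiment were captured at once and fixed cells days later. A run here may therefore hold several C1 captures, which the labels do not tell apart. In the Hoechst run, 96 libraries came from untreated K562 cells stained with Hoechst and propidium iodide. In the benzene run, libraries with counts came from 36 samples of untreated cells in CellTracker Green and 35 samples in CellTracker Orange given 10 mM benzene for 3 hours. In the imatinib run, they came from 51 samples of untreated Green cells and 45 samples of Orange cells given 1 µM imatinib, an inhibitor of the BCR-ABL kinase, for 1 hour. The passages field of the labels reads 90 to 92 for the Hoechst run and 20 to 22 for the CellTracker runs, with hours as its unit. The study set cells fixed with a reversible cross-linker beside fresh cells. The labels used for grouping do not say which libraries were fixed, bulk or from empty sites. In the CellTracker runs stain and treatment coincide, and the part of fixation cannot be separated from them here. No label names separate cultures, so each group was treated as 1 sample and no test between groups was possible.

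The reads on genes per library ran from 50358 to 2043351. The Hoechst run held 112351709 reads in all, the benzene run 92817636 and the imatinib run 120083350. In 21 libraries, 14 of them in the Hoechst run, 6 in the benzene run and 1 in the imatinib run, over 70% of the reads fell on the top 500 genes. All 8 markers listed for K562 were detected, among them PRAME in 263 of 263 libraries and GATA1, the erythroid transcription factor, in 261 libraries. Of 9 markers of other cell types, KRT5 was at 0, MS4A1 had 1 read and CD3E had 5 reads, while EPCAM had reads in 230 libraries and LYZ in 196.

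On GRCh37 the 5 genes lie within 1.13 Mb of chromosome 9, in the order KLHL9, MTAP, CDKN2A, CDKN2B and DMRTA1. KLHL9 (ENSG00000198642) runs from 21329664 to 21335403 on the reverse strand and has 1 exon. MTAP (ENSG00000099810) runs from 21802635 to 21937650 on the forward strand, and its exons cover 14527 bases, of which 1401 are shared with exons of other genes. CDKN2A (ENSG00000147889) runs from 21967751 to 21995300 and CDKN2B (ENSG00000147883) from 22002902 to 22009304, both on the reverse strand. CDKN2A shares 593 of its 3885 exon bases with the antisense RNA CDKN2B-AS1, which leaves 84.7% of them its own, and CDKN2B shares none. DMRTA1 (ENSG00000176399) runs from 22446823 to 22455739 on the forward strand.

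The stretches of 250 bases just upstream of the main transcript start are shown for CDKN2A, CDKN2B and MTAP, and for CDKN2C, the gene on chromosome 1 that encodes the related inhibitor p18, because the first 3 lie in the silent region and the fourth was read in most libraries. Each is written 5′ to 3′ on the strand of its gene from GRCh37, with CpG sites, searched as CG, in capitals. They are chr9:21974857-21975106 on the reverse strand for the p16 transcript of CDKN2A, chr9:22009305-22009554 on the reverse strand for CDKN2B, chr9:21802385-21802634 on the forward strand for MTAP and chr1:51435667-51435916 on the forward strand for CDKN2C.
CDKN2A: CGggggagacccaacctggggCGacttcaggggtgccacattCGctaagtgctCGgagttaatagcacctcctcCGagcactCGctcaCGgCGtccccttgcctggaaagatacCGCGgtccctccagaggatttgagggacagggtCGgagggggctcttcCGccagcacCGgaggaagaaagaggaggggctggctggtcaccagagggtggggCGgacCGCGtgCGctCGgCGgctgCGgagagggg
CDKN2B: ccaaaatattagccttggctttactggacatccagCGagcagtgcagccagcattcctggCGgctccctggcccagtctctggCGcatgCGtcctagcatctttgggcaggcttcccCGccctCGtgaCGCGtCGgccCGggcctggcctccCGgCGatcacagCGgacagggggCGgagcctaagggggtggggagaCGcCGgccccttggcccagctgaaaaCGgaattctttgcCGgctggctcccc
MTAP: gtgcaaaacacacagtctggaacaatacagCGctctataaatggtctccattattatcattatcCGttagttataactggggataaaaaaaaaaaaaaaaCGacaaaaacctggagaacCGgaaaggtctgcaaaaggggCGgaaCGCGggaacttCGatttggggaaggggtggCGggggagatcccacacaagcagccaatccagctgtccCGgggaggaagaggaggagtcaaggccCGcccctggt
CDKN2C: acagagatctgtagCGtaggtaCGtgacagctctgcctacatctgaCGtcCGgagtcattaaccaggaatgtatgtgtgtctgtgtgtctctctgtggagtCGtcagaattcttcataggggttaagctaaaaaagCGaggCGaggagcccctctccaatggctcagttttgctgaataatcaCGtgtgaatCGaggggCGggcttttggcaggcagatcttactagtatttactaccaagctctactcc
The CDKN2A stretch held 20 CpG sites with 66.8% G and C, the CDKN2B stretch 18, the MTAP stretch 11 and the CDKN2C stretch 10. The median over 19150 such stretches of protein-coding genes was 18, and 46.6% of them held as many CpG sites as that of CDKN2A, 52.8% as many as that of CDKN2B, 69.5% as many as that of MTAP and 71.3% as many as that of CDKN2C. DMRTA1 had 13 sites and KLHL9 had 16. The same stretch of CDKN2D, the other expressed gene of this inhibitor family, held 33 sites, which 11.9% of promoters reached. The CpG counts of the 5 genes of 9p21 lay between those of CDKN2C and CDKN2D. That range is wide, since 71.3% of promoters reached its lower end and 11.9% its upper end. Whether CpG content bears on the level of these genes was not tested.

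CDKN2A, the p16 and ARF gene, had 0 reads in each of the 263 libraries. A count of 0 allows up to 3 counts, which over all libraries is 0.00922 counts per 1000000 reads on genes (CPM), and up to 0.0267 CPM in the Hoechst run, 0.0323 CPM in the benzene run and 0.0250 CPM in the imatinib run. CDKN2B, the p15 gene, also had 0 reads in every library of every group, with the same limits. Within the treated groups the limit for either gene was 0.0635 CPM in the benzene Orange libraries and 0.0529 CPM in the imatinib Orange libraries. Neither inhibitor was detectable at this depth under any of the labelled conditions. The reads carry no molecular identifiers, so these limits and all intervals below cover counting error only.

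MTAP, the salvage enzyme, had 5 reads, 1 in each of 5 libraries. Of these, 2 were in the Hoechst run, 0 in the benzene run, 2 in imatinib Green and 1 in imatinib Orange. The level over all libraries was 0.0154 CPM, with an exact 95% Poisson interval from 0.00499 to 0.0359. By run it was 0.0178 CPM (interval 0.00216 to 0.0643) in the Hoechst run and 0.0250 CPM (0.00515 to 0.0730) in the imatinib run, against a limit of 0.0323 CPM in the benzene run. The intervals of the runs overlap, so no difference between runs was detectable. MTAP was read in 1.90% of the libraries, with an exact 95% binomial interval of 0.620% to 4.38%.

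KLHL9, the cullin 3 adaptor, had 1 read and DMRTA1, the DM domain factor, had 1 read, each in a library of the Hoechst run. Both therefore stood at 0.00307 CPM over all libraries, with an interval from 7.78e-05 to 0.0171, and at 0 in the benzene and imatinib runs. Leaving out that 1 library put either gene at 0 in the Hoechst run as well. Per kb of exon, the scale on which genes of different length can be set side by side, MTAP stood at 0.00106 CPM per kb (0.000344 to 0.00247), DMRTA1 at 0.00055 CPM per kb (1.39e-05 to 0.00307) and KLHL9 at 0.000536 CPM per kb (1.36e-05 to 0.00298). The limits for CDKN2A and CDKN2B were 0.00237 and 0.00231 CPM per kb. This order from MTAP to KLHL9 is not resolved, since the 3 intervals overlap and the limits of the other 2 genes lie inside them.

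The 5 genes as a group had 4 reads in 4 of 96 libraries of the Hoechst run (0.0356 CPM, 0.00970 to 0.0912), 0 reads in 71 libraries of the benzene run and 3 reads in 3 of 96 libraries of the imatinib run (0.0250 CPM). The 0 of 71 libraries allows a share of up to 4.23% of libraries with a read, which is above the 4.17% of the Hoechst run and the 3.13% of the imatinib run. On the CPM scale the benzene limit of 0.0323 CPM lay below the 0.0356 CPM of the Hoechst run, but inside the interval of that value. The absence of reads in the benzene run was therefore within what counting allows. No library held more than 1 read of any of these genes, and no library held reads of more than 1 of them. With at least 1 CPM as the criterion for a detected gene, the one the authors used, no library detected any of the 5, because a single read was worth between 0.610 and 0.840 CPM in their table.

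The 7 reads lay in libraries of 1096972 to 1548689 reads, where the median was 1231668 in the Hoechst run and 1230641 in the imatinib run. The MTAP reads were in libraries 71 and 93 of the Hoechst run, libraries 33 and 66 of imatinib Green and library 22 of imatinib Orange. The KLHL9 read was in library 81 and the DMRTA1 read in library 73 of the Hoechst run. None of these 7 libraries was among the 21 libraries with over 70% of reads in the top 500 genes, so the count of 7 was the same without those 21. Library 93 had reads on 16360 genes, the highest number of its run, where the median was 9168.5. Library 73 had 24.2% of its reads on mitochondrial genes, against a run median of 13.9%. Library 33 had reads on 10994 genes, against a run median of 9600, and also held 1 of the 2 reads of ENSG00000265194, a long non-coding RNA inside MTAP. The other 4 libraries had reads on 9387 to 9949 genes. Whether depth, RNA quality or reads carried over from other material had a part in these single reads was not tested.

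**Figure D1:**
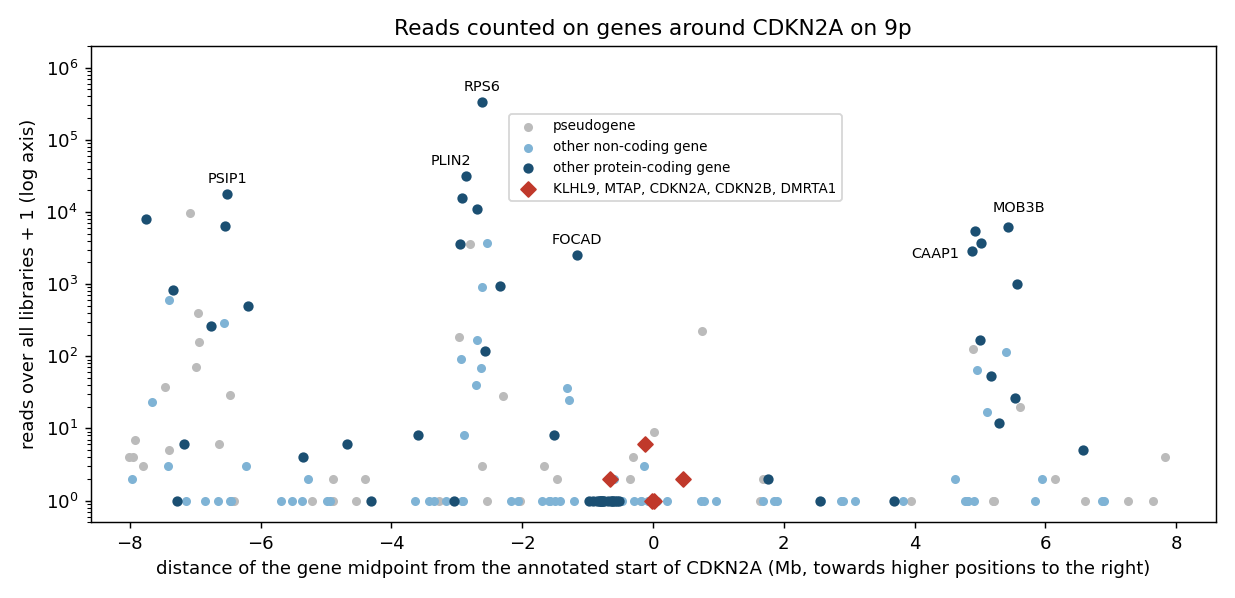
Reads per gene summed over 263 libraries, plus 1 on a log axis, against the distance of the gene midpoint from the annotated start of CDKN2A in Mb. Each point is 1 gene, and the 5 genes of 9p21 (red diamonds) sit at 0 to 5 reads in a gap between FOCAD with 2547 reads and CAAP1 with 2876 reads.

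The genes around them were read in the same way. From KLHL9 to DMRTA1 the table lists 32 genes, all of them under 0.1 CPM and 24 of them at 0. The 27 genes other than the 5 had 15 reads, of which 12 were on pseudogenes and 3 on long non-coding RNAs. The type I interferon genes, antiviral cytokines that stand as a cluster next to MTAP, have 16 protein-coding members from IFNB1 to IFNE, and all 16 had 0 reads. Of these, IFNA6, IFNA13, IFNA2, IFNA8, IFNA1 and IFNE lie between KLHL9 and MTAP. MIR31HG, MIR31, CDKN2A-DT and CDKN2B-AS1, the long antisense RNA known to act on CDKN2B, were also at 0. UBA52P6 with 8 reads and KHSRPP1 with 3 reads are pseudogenes, whose reads may belong to other copies in the genome. ENSG00000261696 had 1 read, in a library of the Hoechst run with 91.1% of its reads in the top 500 genes.

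The nearest protein-coding genes with at least 1 CPM were FOCAD on the side of KLHL9 and CAAP1 on the side of DMRTA1, and the distance from the end of FOCAD at 20995954 to the start of CAAP1 at 26840683 was 5.84 Mb. FOCAD, which encodes focadhesin, had 2547 reads in 71 of 263 libraries, at 9.61 CPM in the Hoechst run, 11.3 CPM in the benzene run and 3.51 CPM in the imatinib run. CAAP1, a regulator of apoptosis, had 2876 reads in 141 libraries, at 12.1, 6.24 and 7.79 CPM in the same order. Both flanks were read in every run, while no gene of the 5 reached 0.1 CPM in any run. Per kb of exon, FOCAD stood 759-fold above MTAP (exact 95% interval 325 to 2339) and CAAP1 2644-fold (1132 to 8150).

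From HACD4 to TUSC1, the outermost protein-coding genes of the gap, 67 of 68 genes were under 0.1 CPM and 56 had 0 reads. The exception was CLIC4P1, a pseudogene with 221 reads in 45 libraries, 71 of them in 1 library. Of the 246 reads of these 68 genes, 235 were on pseudogenes and 8 on protein-coding genes, and the 8 were the 7 reads of the 5 genes and 1 read of ELAVL2, which encodes a neuronal RNA-binding protein. Within 4 Mb on either side of CDKN2A, 95 of 113 genes were under 0.1 CPM. The genes with most reads in that interval lay beyond FOCAD. They were RPS6, a protein of the small ribosomal subunit, with 335412 reads in 263 libraries, PLIN2, a lipid droplet protein, with 31348 reads, HAUS6, a subunit of the augmin complex of the spindle, with 15661 reads, and DENND4C with 11079 reads. RRAGA, a GTPase of amino acid signalling, had 3604 reads, SLC24A2 had 951 and ACER2 had 117. Among non-coding genes and pseudogenes of the interval, ENSG00000260912 had 3702 reads, ENSG00000232176 had 3589, ENSG00000273226 had 905, ENSG00000236680 had 183 and snoU13 had 168. MLLT3, a fusion partner in leukaemia that lies beyond FOCAD, had 7 reads, so genes with few reads were also found outside the gap.

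A low count alone does not set the 5 genes apart. Among 19430 protein-coding genes outside chromosome Y and the mitochondrial genome, 25.8% had at most 5 reads and 15.3% had 0, and on chromosome 9 the share with at most 5 reads was 26.4% of 773 genes. The run of neighbouring genes was less usual. Protein-coding genes under 0.1 CPM fell into 3123 unbroken stretches along the chromosomes, with a median of 1 gene and 42 stretches of 10 genes or more. The stretch that holds the 5 genes, HACD4 to TUSC1, had 25 genes over 4.68 Mb and 8 reads, and 11 stretches, itself included, had at least as many genes. Of the 25 genes from HACD4 to TUSC1, 16 are type I interferon genes. The rank by number of genes thus rests in large part on 1 gene family. Only 1 other stretch was at least as long both in genes and in Mb, OR4B1 to LRRC55 on chromosome 11 with 64 genes over 8.72 Mb, which holds a cluster of olfactory receptor genes and crosses the centromere. The stretch kept its 25 genes with a threshold of 1 or 5 CPM, and fell to 6 genes from CDKN2A to TUSC1 with one of 0.01 CPM, because the 5 MTAP reads then broke it. These thresholds were chosen after the counts were seen. The ranks among stretches were taken at 0.1 CPM only and are a description without a test.

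Next, genes of similar role outside the locus were read in the same libraries. All 5 other CDK inhibitors examined were at 1 CPM or above, with 21379 reads between them. CDKN2C, the closest relative of CDKN2A and CDKN2B in role, had 4981 reads in 167 of 263 libraries. Its library values ran from 0 to 344 CPM with a median of 2.40 in the Hoechst run, from 0 to 290.1 with a median of 0 in the benzene run and from 0 to 117 with a median of 3.95 in the imatinib run. CDKN2D, which encodes the remaining INK4 protein p19, had 2368 reads in 55 libraries, of which 890 were in 1 library. CDKN1C, which encodes p57, had 10828 reads in 187 libraries, CDKN1B, for p27, had 2036 in 97 libraries and CDKN1A, for p21, had 1166 in 48. Per kb of exon, CDKN2C stood at least 2137-fold higher than CDKN2A and at least 2201-fold higher than CDKN2B, both set at the limit of 3 counts over all libraries. The lowest of the 5, CDKN1B, was still at least 285-fold and 293-fold higher than they were.

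All 14 partners and targets of p16 and ARF were at 1 CPM or above. The highest were MDM4, a relative of MDM2, with 94877 reads, CCND2, a D-type cyclin, with 94664 reads and CDK6, a kinase that p16 binds, with 80234 reads. CDK4 had reads in 198 libraries and MDM2, the ligase that ARF restrains, in 252. RB1, whose protein is kept active by p16, had 4015 reads in 167 libraries. The kinases and cyclins on which p16 and p15 act were thus read in libraries in which neither inhibitor was.

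**Figure D2:**
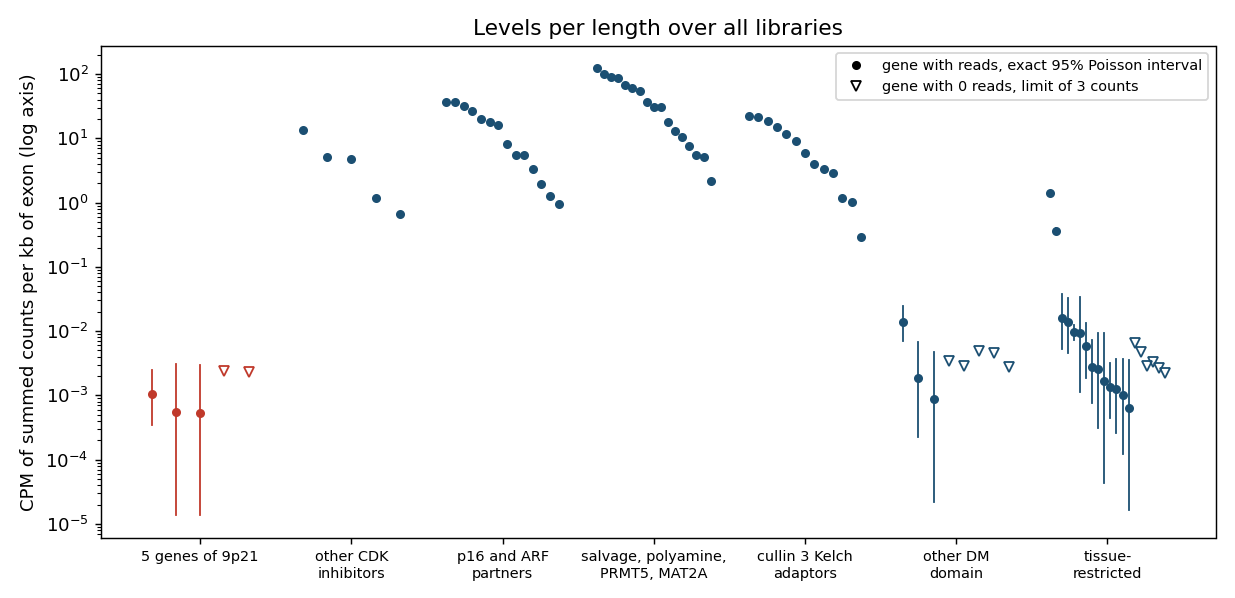
CPM of summed counts per kb of exon on a log axis for the 5 genes of 9p21 (red) and for genes of 6 lists (blue), 1 mark per gene. Bars are exact 95% Poisson intervals, open triangles mark genes with 0 reads at the limit of 3 counts, and the 9p21 genes lie at or below 0.00237 CPM per kb, beside the DM domain and most tissue-restricted genes and below every gene of the other 4 lists.

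MTAP was set beside 17 genes of methionine salvage, polyamine synthesis and the PRMT5 and MAT2A arm, on which cells without MTAP are known to depend. All 17 were at 1 CPM or above, led by AHCY, which breaks down S-adenosylhomocysteine, with 111675 reads, ODC1, the first enzyme of polyamine synthesis, with 107560 reads and CLNS1A, an adaptor of PRMT5, with 90439 reads. MRI1, the enzyme that acts just after MTAP in the salvage path, had 2409 reads in 116 libraries and stood 2019-fold above MTAP per kb (864 to 6225). APIP, the next enzyme, had 17865 reads in 223 libraries. PRMT5, the arginine methyltransferase inhibited by the substrate of MTAP, had 58098 reads in 213 libraries and stood 51526-fold above MTAP per kb (22078 to 158694). MAT2A, which makes S-adenosylmethionine, had 45384 reads in 241 libraries, and PNP, the purine phosphorylase related to MTAP, had 34322. MTAP was thus almost without reads in libraries in which the next enzymes of its path were read.

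KLHL9 was set beside 13 genes of the cullin 3 ligase, all at 1 CPM or above. The highest were KLHL18 with 26418 reads, KEAP1, the sensor that degrades NRF2, with 25796 and KLHL12 with 24120. KLHL13, the nearest relative of KLHL9 and its partner at cullin 3 in mitosis, had the fewest, 649 reads in 29 libraries, and stood 538-fold above KLHL9 per kb (96.2 to 21271). KLHL21, another mitotic adaptor, had 19677 reads in 175 libraries, and CUL3 itself had 10809. The interval for KLHL13 is wide because the KLHL9 level rests on 1 read.

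DMRTA1 differed from the other 4 genes in this respect, since the genes of similar role were silent too. Of 8 other DM domain genes, which act in gonad and nervous system development, 5 had 0 reads, namely DMRT3, DMRTA2, DMRTC1, DMRTC1B and DMRTC2. DMRTB1 had 11 reads in 4 libraries of the imatinib run, DMRT1 had 2 reads and DMRT2 had 1. DMRT1, DMRT2 and DMRT3 lie near the tip of 9p, between positions 841690 and 1057552, outside the gap. The single read of DMRTA1 therefore gives no contrast with its own family.

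The 5 genes had a median of 1 read. The median was 2 reads over 20 genes restricted to other tissues, of which 17 had at most 5 reads. Among those with 0 reads were MYL2, NEUROD6, SFTPC, UMOD and KRT5, markers of muscle, neurons, lung, kidney and epidermis. APOA1, APOA2, GFAP and CD3E had 5 reads each, FGB had 4, MYH6 had 3, INS, GCG and MYH7 had 2 each and CRYAA and MS4A1 had 1 each. Among the exceptions were ALB with 406 reads, 248 of them in 1 library, and MBP with 59 reads, 51 of them in 1 library. By median reads the 9p21 genes thus stood nearer to these genes than to the lists of CDK inhibitors, salvage enzymes and Kelch adaptors, whose medians were 2368, 35516 and 10809 reads.

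**Figure D3:**
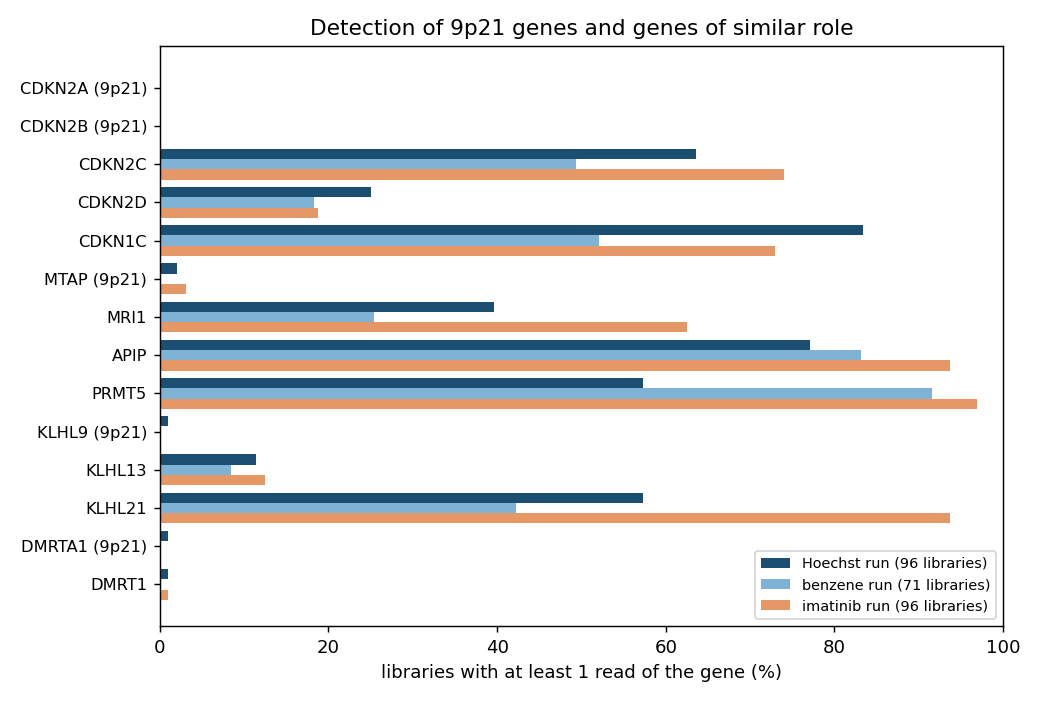
Share of libraries with at least 1 read of each gene, in percent from 0, in the Hoechst run (96 libraries), the benzene run (71 libraries) and the imatinib run (96 libraries). MTAP reaches 3.13% in the imatinib run and CDKN2A and CDKN2B 0% in all runs, while CDKN2C was read in 167 and PRMT5 in 213 of the 263 libraries.

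None of the 5 genes reached 10 CPM in any group, so none has a ratio between groups. For genes of similar role that did, log2 ratios of CPM with a pseudocount of 1 were compared between groups, without a replicate check. Within the CellTracker runs stain and treatment coincide, and the labels do not say which libraries were fixed. In the benzene run, 9 of 41 genes (22.0%) differed more than 2-fold between Orange and Green, beside 28.6% of all genes at that level. In the imatinib run, 2 of 41 (4.88%) did, beside 7.31%, and between the Hoechst run and the Green libraries of both other runs 9 of 43 (20.9%), beside 30.7%. The differences between these shares were not tested, and the Hoechst count ranged from 5 to 16 over other settings, so no order of the shares is read from them.

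In the benzene run, the Orange libraries stood higher for RBL1 (log2 ratio 1.54) and MDM2 (1.23) and lower for RB1 (-1.28) and the p19 gene CDKN2D (-4.03). Without the 1 library that held most reads of each gene these became 0.83, 0.98, -0.39 and -1.52, the last 2 with both groups under 10 CPM, so none kept its call, although MDM2 stayed close to 2-fold. For CDKN2D that was library 1 of benzene Green, with 890 of the 1029 Green reads. In each comparison the library was left out only from the group with the higher level, which moves a ratio towards 0. The ratios of KLHL18 (2.20), CUL3 (1.48) and KLHL21 (-2.69) stayed past 2-fold, and that of AMD1 (-1.09) became -0.75. In the imatinib run MRI1 was higher in Orange, at 18.5 against 6.92 CPM (log2 ratio 1.30), and stayed so without its top library at 1.12, while RB1 went from -1.18 to -0.93, just within 2-fold. The Hoechst run differs from the Green libraries in run, stain, passage, sequencer and read length. By the study's account it also differs in the lot of K562 cells and in the storage time of fixed cells. Cells stained as dead were, by the same account, sequenced in the Hoechst run but excluded from the CellTracker runs. These differences cannot be told apart. In the Hoechst run CDKN1C stood at 69.2 against 11.8 CPM (log2 ratio 2.45), CDKN1B at 12.8 against 4.47 (1.34) and CCND1, a D-type cyclin, at 15.1 against 1.15 (2.90). The CCND1 ratio was 1.17 with a pseudocount of 10 and 1.21 as a mean of log2 values over libraries. PRMT5 was lower there, at 41.6 against 274 CPM (-2.69), as were its partner WDR77 (-1.36) and CDK4, at 22.6 against 143 CPM (-2.61). These 6 ratios stayed past 2-fold without the top library of each gene, while those of PNP, ENOPH1 and KEAP1 went from -1.09, -1.08 and -1.05 to -0.97, -0.95 and -0.92, small moves that took them just within 2-fold. The Hoechst run held 14 of the 21 libraries with over 70% of reads in the top 500 genes. Without these 21 libraries 8 genes of similar role were past 2-fold in that comparison, and the part of library quality in the ratios was not otherwise tested.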

How the data were processed

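RNA of K562 cells was measured in 267 labelled libraries of 3 runs, set by title prefix. They were grouped by run and by stain with its treatment as the labels give them. The authors trimmed reads with skewer, aligned them with HISAT2 to GRCh37 plus ERCC spike-in sequences, marked duplicates with Picard 1.92 and counted uniquely mapped reads with featureCounts on Ensembl 75. Whether marked duplicates were left out is not given in the sources used here. The deposited count table holds raw read counts of 63677 genes and 92 ERCC sequences. The deposited CPM table holds CPM values with ERCC in the total, and was used only for the authors' detection criterion and as an alternative scaling. Of the columns, 263 matched a title, 4 matched none and were not used, and 4 titles had no column.

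CPM here is per 1000000 reads on genes, from counts summed per group. Places, classes and exon lengths came from GENCODE v44lift37 on GRCh37, later than the annotation used for counting, in which 55665 genes with 99.0% of the reads were found. Levels per kb use its merged exons, so they depend on that annotation. The merged exons of MTAP are long there, at 14527 bases, which lowers its level per kb and raises the folds of other genes over it. The intervals of these folds do not cover this. Intervals are exact Poisson (sums) or Clopper-Pearson (shares of libraries) at 95%, and 0 is given as a limit of 3 counts. Ratios used a pseudocount of 1 and genes with at least 10 CPM in either group. The 5 genes and the lists were chosen with earlier results of these data known. Besides the 5 genes, the rule named genes of the interval with at least 100 reads or between the outermost of the 5, and from each list the 3 highest genes and those under 10 reads. Other genes of the lists were named for their role or their ratio, and some genes of the lists are not reported here. No gene was named for likeness of pattern, since none of the 5 was read in 20 libraries. Alternatives changed libraries, thresholds, scaling (edgeR 4.0.16, DESeq2 1.42.0 factors, R 4.3.3), filters and pseudocount. Scripts used Python 3.11.15, numpy 2.4.6, pandas 2.3.3, scipy 1.17.1 and matplotlib 3.10.9, and the ratio and stretch steps were tested on simulated data.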

Additional observations from a re-analysis of the deposited data

How the results depend on the processing

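Of 98 alternative values over 30 results, 81 stayed and 17 moved, and 10 of the 98 were chosen after seeing the data. The 30 results are levels and counts without a direction, so none of them could reverse. Of 49 alternative CPM values of the 5 genes, 47 stayed, meaning that they lay inside the Poisson interval of the value reported. Those of DMRTA1 and KLHL9 in the Hoechst run became 0 without the library with most reads of the gene. Most of the 49 belong to a gene with 0 reads in the run. Leaving out libraries or rescaling cannot change a 0, so these values had to stay. The Poisson intervals of the others are wide, and MTAP in the Hoechst run went from 0.0178 to 0.00902 CPM without 1 of its 2 libraries with a read. A count stayed when it was within 1.5 times that reported. Libraries with a read of the 5 genes became 0 in both the Hoechst and the imatinib run when more than 2 reads, or at least 1 CPM in the authors' table, was required. Genes of the interval under 0.1 CPM numbered 149 with 8 Mb on either side in place of 95 with 4 Mb. The stretch around CDKN2A had 6 genes under 0.01 CPM and 55 with all gene classes but pseudogenes, in place of 25. The tissue-restricted genes had 500 reads without the gene with most reads, in place of 1750.

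Genes of similar role past 2-fold in the imatinib run numbered 5 with no filter on low values, 0 with a pseudocount of 10, 1 without the library with most reads of each gene and 1 without libraries over 70% in the top 500 genes, in place of 2. In the benzene run they numbered 3 without the library with most reads of each gene, in place of 9. In the comparison of the Hoechst run they numbered 5 with a pseudocount of 10 and 16 with the mean of log2 values over libraries, of which 2 were higher and 14 lower, in place of 3 higher and 6 lower. With TMM factors the split there was 3 higher and 10 lower, and the median log2 ratio of all genes was -0.13, in place of 0.04. In the benzene run the mean of log2 values moved that median to 0.29 and gave 6 higher and 1 lower, in place of 4 and 5, and a pseudocount of 10 gave 4 higher and 2 lower. With TMM factors the imatinib median was 0.15, with 2 genes higher and 1 lower. The sign of the log2 ratio of genes of similar role also depended on the setting. With the mean of log2 values it changed for 12 genes in the benzene run, 8 in the imatinib run and 8 in the Hoechst comparison. With TMM factors it changed for 10 in the imatinib run. The cause was not tested. No paired analysis was possible because each group is 1 sample and no test between groups was run, and nothing in the labels says that a library number shared by runs marks a pair.

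Depth limits what a count of 0 can show, to 0.00922 CPM over all libraries and 0.0323 CPM in the benzene run. The level of KLHL9 and of DMRTA1 rests on 1 read each.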

Other observations

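Outside the gap, 9p held other stretches of genes with almost no reads. From PTPRD to LURAP1L, nearer the tip, 3 neighbouring protein-coding genes over 4.51 Mb had 3 reads in all, and the stretch ranked 13th by length and 356th by number of genes among 3123, beside ranks of 12 and 10 for HACD4 to TUSC1. From BNC2 to SAXO1, on the side of FOCAD and beyond RPS6, 5 neighbouring protein-coding genes over 2.64 Mb had 15 reads in all, and the stretch ranked 137th by number of genes and 41st by length among 3123. LINGO2, a neuronal gene beyond CAAP1, had 4 reads over 1.28 Mb. IFNK, a type I interferon gene that lies outside the main cluster, had 25 reads in 4 libraries, 24 of them in the Hoechst run, while the 16 genes of the cluster had 0. IFNK lies within the bounds of MOB3B, which had 6231 reads in 168 libraries. Whether the reads counted on IFNK came from MOB3B was not tested. These genes were named after their values were seen.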
